A study of Mus musculus with 15 samples.

Results

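The genes described here make, store and clear serotonin in the gut wall, together with transcription factors and a peptide of the cells that hold it. They are Tph1, Ddc, Slc18a1, Slc18a2, Lmx1a, Fev, Tac1, Maoa and Slc6a4, 9 of the 37620 Ensembl genes counted, chosen by symbol and present in all 15 libraries. RNA came from the ileum of adult mice of 2 cohorts, harvested 8 days or 3 months after tamoxifen was given by gavage, and all groups received it. Mutants were Rfx6f/f; Vilin-CreERT2, in which tamoxifen activates a Cre driven by the promoter of villin, a gene of the intestinal epithelium, to delete the floxed alleles of Rfx6. There were 3 controls at 8 days, all Rfx6f/f, with 4 mutants. At 3 months there were 4 controls, of which replicates 1 and 4 were Rfx6f/f and replicates 2 and 3 were Rfx6f/+, with 4 mutants. The study was made to identify genes that depend on Rfx6, a transcription factor of endocrine cells, in the adult ileum. No control carried the Cre, so Cre activity and loss of Rfx6 cannot be told apart, and the interval since gavage cannot be told apart from the cohort. Whether each library came from a separate mouse is not given in the labels, so p-values measure the spread between these libraries.

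Most serotonin of the body is made by enterochromaffin cells, endocrine cells scattered through the gut epithelium. Tph1 hydroxylates tryptophan, the slow step of the pathway, and Ddc then removes the carboxyl group to give serotonin. Slc18a1 and Slc18a2, the vesicular monoamine transporters VMAT1 and VMAT2, load it into secretory vesicles. Lmx1a is a LIM homeodomain factor that acts upstream of Tph1, and Fev is an ETS factor of serotonin neurons and endocrine precursors. Tac1 encodes the precursor of substance P, held by enterochromaffin cells and by enteric neurons. After release, Slc6a4, the serotonin transporter SERT, brings serotonin into enterocytes and platelets, and Maoa, a mitochondrial monoamine oxidase, degrades it.

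Rfx6 itself, which checks the labels, showed no fall under the mutant label. At 8 days its counts were 50, 50 and 84 in controls and 80, 105, 63 and 44 in libraries labelled mutant (log2 fold change 0.19 with SE 0.18; adjusted p 0.867 by the edgeR quasi-likelihood test). At 3 months they were 51, 52, 38 and 43 against 106, 72, 89 and 65 (log2 change of 0.72 ± 0.17 SE with an adjusted p of 0.0347). Exon-level reads were not analysed here, so gene totals leave the deletion unchecked, and the groups are called libraries labelled control and mutant. Total counts ran from 30452485 to 54468586 per library at 8 days and from 26078462 to 36270306 at 3 months. Levels are given in counts-per-million (CPM) after TMM scaling, on which 3 counts, the floor for detection, correspond to 0.0552 to 0.0975 CPM at 8 days and 0.0800 to 0.1165 CPM at 3 months. This floor covers counting error only.

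The sequence just before the start sites of Tph1, Lmx1a and Ddc, which were higher at 3 months, and of Tac1, which was not called, is shown so that their promoters can be compared. RefSeq starts on GRCm38.p6 matched 8 of the 9 genes, all but Slc18a1, with 10 windows of 250 bases. Windows are written 5′ to 3′ on the strand of the gene, and capitals mark the RFX half-site GTTGCC and the LIM homeodomain core TAATTA, searched on both strands along with the ETS core CCGGAA, the E-box CAGCTG and the TATA box letters TATAAA. The first Tph1 window lies at chr7:46667378-46667627 on the minus strand and the second, of a start farther upstream, at chr7:46672538-46672787. Lmx1a is at chr1:167689308-167689557 on the plus strand, Ddc at chr11:11890409-11890658 and chr11:11898145-11898394 on the minus strand, and Tac1 at chr6:7554811-7555060 on the plus strand.
Tph1, first window: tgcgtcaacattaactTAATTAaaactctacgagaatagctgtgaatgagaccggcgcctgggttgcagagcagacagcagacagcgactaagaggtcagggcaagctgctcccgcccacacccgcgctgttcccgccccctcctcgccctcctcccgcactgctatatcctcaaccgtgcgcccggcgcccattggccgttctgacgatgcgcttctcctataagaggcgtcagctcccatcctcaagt
Tph1, second window: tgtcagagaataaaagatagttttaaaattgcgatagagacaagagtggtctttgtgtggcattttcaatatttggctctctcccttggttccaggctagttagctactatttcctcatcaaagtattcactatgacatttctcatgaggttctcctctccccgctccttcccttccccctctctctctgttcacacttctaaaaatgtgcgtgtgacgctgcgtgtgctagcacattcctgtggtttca
Lmx1a: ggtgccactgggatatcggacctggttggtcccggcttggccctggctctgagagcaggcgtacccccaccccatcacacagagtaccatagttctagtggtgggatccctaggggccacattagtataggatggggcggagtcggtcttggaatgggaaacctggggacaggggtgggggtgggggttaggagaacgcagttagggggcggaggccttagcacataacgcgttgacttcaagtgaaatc
Ddc, first window: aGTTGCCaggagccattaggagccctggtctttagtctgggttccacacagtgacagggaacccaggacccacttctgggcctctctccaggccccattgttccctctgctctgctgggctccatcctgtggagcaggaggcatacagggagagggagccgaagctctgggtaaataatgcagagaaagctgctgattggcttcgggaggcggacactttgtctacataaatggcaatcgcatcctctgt
Ddc, second window: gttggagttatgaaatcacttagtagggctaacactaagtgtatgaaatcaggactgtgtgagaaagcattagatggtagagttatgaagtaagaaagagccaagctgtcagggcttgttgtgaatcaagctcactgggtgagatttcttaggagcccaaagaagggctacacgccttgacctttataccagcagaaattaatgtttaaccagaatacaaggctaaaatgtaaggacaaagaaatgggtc
Tac1: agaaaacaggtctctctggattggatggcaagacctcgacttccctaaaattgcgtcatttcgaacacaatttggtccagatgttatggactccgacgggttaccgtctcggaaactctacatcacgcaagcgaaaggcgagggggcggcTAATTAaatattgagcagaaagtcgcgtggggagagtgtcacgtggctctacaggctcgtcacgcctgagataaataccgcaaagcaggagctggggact

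TAATTA was found in the windows of 3 genes, 234 bases before the first Tph1 start, 100 bases before that of Tac1 and 69 bases before that of Fev. Of all 32851 windows in the table, 4.84% held it. GTTGCC was found 249 bases before the first Ddc start and 197 bases before that of Maoa, and 10.4% of all windows held it. CCGGAA was in none of the 10 windows and in 12.0% of all. The E-box CAGCTG was found before Slc18a2 and Slc6a4 (13.0% of all windows) and TATAAA on the opposite strand, reading TTTATA as printed, in the second Ddc window (12.4%). A match describes letters in a window and does not show that a factor binds there. Base composition differed, with 58.8% G and C in the first Tph1 window, 43.6% in the second and 59.2% in that of Lmx1a, against a median of 52.4% over all windows.

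Synthesis genes were higher 3 months after tamoxifen. Tph1 was 8.04, 5.59, 6.64 and 12.1 CPM in the libraries labelled control, replicates 1 to 4, and 30.8, 28.6, 33.1 and 25.7 CPM in those labelled mutant. The lowest library labelled mutant lay above the highest control, which was the Rfx6f/f replicate 4. The change was 3.65-fold (log2 change of 1.87 ± 0.22 SE with an adjusted p of 0.00408). Ddc was 57.1, 47.5, 43.9 and 68.5 CPM in controls and 92.0, 91.9, 69.6 and 98.3 CPM in libraries labelled mutant. Its groups came close, at 68.5 and 69.6 CPM, without overlapping. Ddc rose 1.62-fold (log2 change of 0.70 ± 0.15 SE with an adjusted p of 0.0291). This call was lost without control replicate 1, 2 or 3 or mutant replicate 1 or 4, with log2 fold changes from 0.61 to 0.83 over all libraries left out in turn.

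Of the storage genes, Slc18a1 rose and Slc18a2 did not pass the test. Slc18a1, the form typical of endocrine cells, was 9.50, 9.31, 9.09 and 10.8 CPM in the libraries labelled control at 3 months and 16.3, 13.8, 15.5 and 15.3 CPM in those labelled mutant. The groups were apart and narrow, and the change was 1.58-fold (log2 change of 0.66 ± 0.09 SE with an adjusted p of 0.00764). Slc18a2, also used by neurons and mast cells, was 1.39, 0.952, 1.44 and 1.87 CPM in controls against 1.67, 1.49, 2.69 and 1.46 CPM. Its groups overlapped, and only mutant replicate 3 stood above every control (log2 change of 0.38 ± 0.27 SE with an adjusted p of 0.368). Slc18a2 shares 111 exon bases with a gene on the opposite strand, and the handling of strand in the counts is not given in the sources used here.

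Of the transcription factors, Lmx1a rose about as much as Tph1. It was 1.46, 0.983, 0.893 and 1.83 CPM in the libraries labelled control at 3 months and 5.17, 3.50, 4.53 and 4.88 CPM in those labelled mutant. Its ranges lay well apart, and the change was 3.49-fold (log2 change of 1.80 ± 0.24 SE with an adjusted p of 0.00707). Fev was too low to test at either time, with 1 to 4 counts in every library at 3 months. At 8 days it had 7, 5 and 7 counts in controls and 2, 15, 7 and 6 in libraries labelled mutant, and no difference was detectable at this depth.

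Tac1 and the clearance genes did not pass the test at 3 months. Tac1 was 36.9, 38.9, 38.8 and 16.3 CPM in the libraries labelled control and 27.5, 33.4, 37.0 and 24.9 CPM in those labelled mutant (log2 change of -0.09 ± 0.26 SE with an adjusted p of 0.842). Control replicate 4 was far below the other 3 controls and below every library labelled mutant, and without it the log2 fold change was -0.31 (adjusted p 0.165). Slc6a4 was 66.5, 53.9, 91.5 and 90.4 CPM in controls and 72.4, 113.3, 88.1 and 119.8 CPM in libraries labelled mutant, with overlapping groups (log2 change of 0.38 ± 0.20 SE with an adjusted p of 0.249). Maoa, by far the most abundant of the genes, was 537.4, 410.2, 538.1 and 759.4 CPM against 782.4, 586.4, 469.5 and 595.2 CPM (log2 change of 0.12 ± 0.20 SE with an adjusted p of 0.732). Its lowest and highest libraries in each group spanned most of the range of the other group.

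Of the 8 genes tested at 3 months, 4 were higher and 0 lower at an adjusted p under 0.05, against 9.28% of all 17085 genes tested, with 4.96% higher and 4.32% lower. The same 4 genes, Tph1, Ddc, Slc18a1 and Lmx1a, were those whose groups did not overlap, against 9.7% of all genes with every library labelled mutant above every control. The median log2 fold change of the 8 genes was 0.52, beside 0.0077 over all genes. Leaving out the 2 Rfx6f/+ controls, which changes the control genotype and cuts the controls from 4 to 2, ended 3 of these calls, and which of the changes did so was not tested. With the 2 Rfx6f/f controls alone, Tph1 kept its call (log2 fold change 1.55, adjusted p 0.0397), while Lmx1a (1.45, adjusted p 0.0746), Ddc (0.48, adjusted p 0.213) and Slc18a1 (0.58, adjusted p 0.119) did not pass, and 36 genes in all were called. In bulk tissue, more cells of a type and more RNA per cell cannot be told apart.

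**Figure D1:**
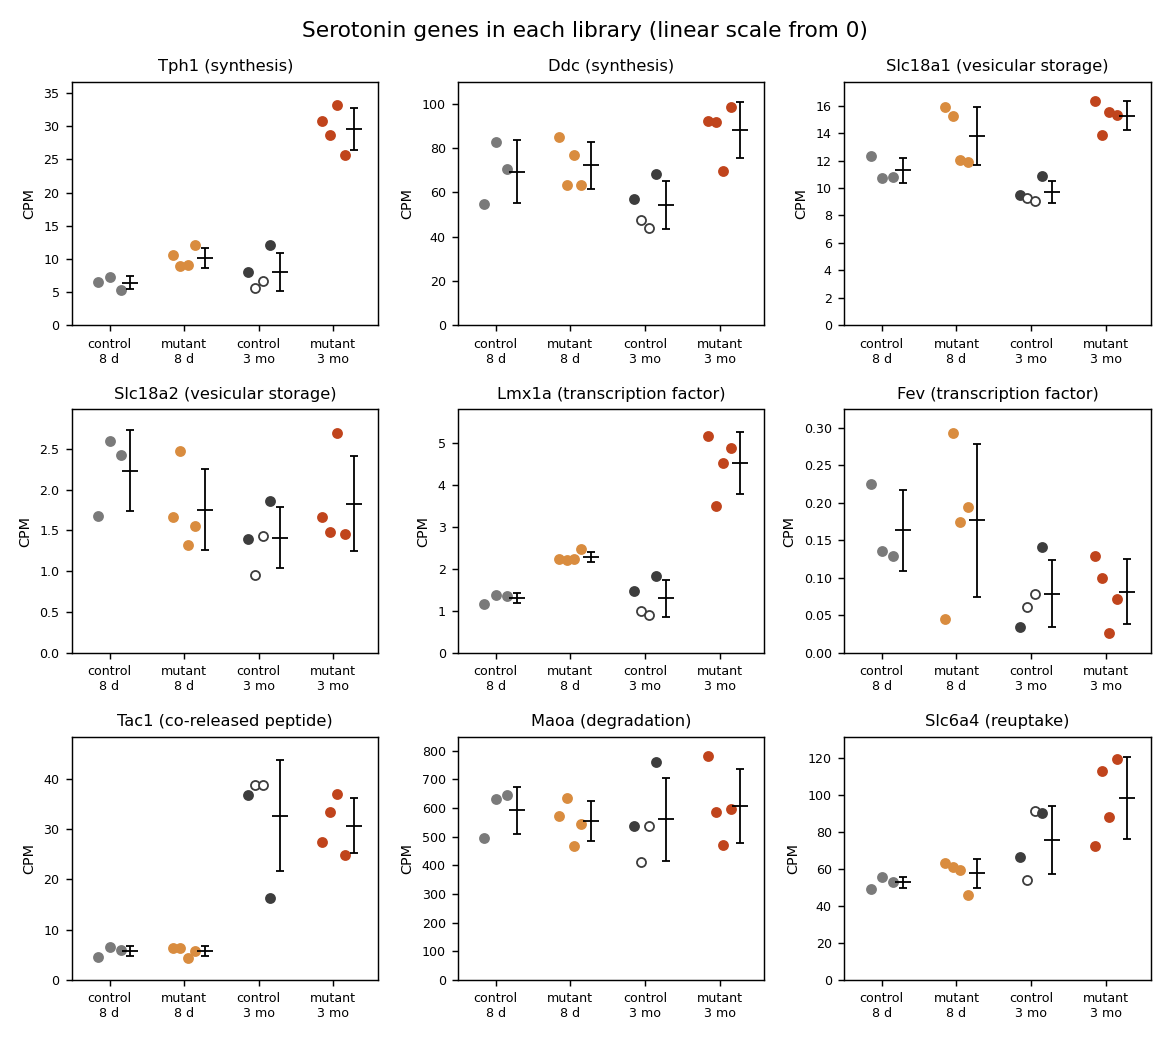
Level of each of the 9 serotonin genes in each of the 15 libraries, in CPM on the vertical axis, by group. Points are libraries, open circles are Rfx6f/+ controls, and the bar beside the points is the mean with its SD. At 3 months Tph1, Lmx1a, Ddc and Slc18a1 lie higher in every library labelled mutant than in any control, and Tac1 is several times higher at 3 months than at 8 days in both genotypes.

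Heterozygous controls had lower means than Rfx6f/f controls for 7 of the 8 genes tested, whether or not the gene passed the test. The share of all genes with lower means in heterozygous controls was not computed, so this count is a description only. Tph1 averaged 10.1 CPM in the 2 Rfx6f/f controls at 3 months and 6.12 CPM in the 2 Rfx6f/+ controls, and the ranges, 8.04 to 12.1 and 5.59 to 6.64 CPM, did not overlap. Lmx1a was 1.65 against 0.938 CPM, Ddc 62.8 against 45.7 CPM and Slc18a1 10.2 against 9.20 CPM, again without overlap. These were 4 of the 8 genes, while 24.4% of all genes tested had both Rfx6f/f controls above both Rfx6f/+ controls. Maoa, at 648 against 474 CPM, Slc18a2, at 1.63 against 1.19 CPM, and Slc6a4, at 78.5 against 72.7 CPM, had overlapping ranges. Tac1 went the other way, at 26.6 against 38.9 CPM without overlap, as did 22.0% of all genes. With 2 libraries a side no test of this difference was made.

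At 8 days 0 of the 8 genes tested passed by edgeR, against 0.0915% of all 17493 genes (16 genes). Tph1 and Lmx1a, 2 of the 8, had an unadjusted p under 0.05, as did 8.80% of all genes (1540 genes). Tph1 was 6.60, 7.29 and 5.39 CPM in the libraries labelled control and 10.5, 8.97, 9.04 and 12.2 CPM in those labelled mutant (log2 change of 0.66 ± 0.16 SE with an adjusted p of 0.379). Lmx1a was 1.16, 1.38 and 1.36 CPM against 2.23, 2.21, 2.22 and 2.47 CPM (log2 change of 0.80 ± 0.15 SE with an adjusted p of 0.201). For these 2 of 8 genes every library labelled mutant lay above every control, as for 3.84% of all genes. DESeq2, run as an alternative, called both of them (adjusted p 0.0144 and 0.0372) and 178 genes in all.

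The remaining genes overlapped between the groups at 8 days. Ddc, the decarboxylase, was 54.7, 82.9 and 70.4 CPM in controls and 84.8, 63.5, 77.0 and 63.4 CPM in libraries labelled mutant (log2 change of 0.06 ± 0.15 SE with an adjusted p of 0.971). Slc18a1 was 12.3, 10.7 and 10.8 CPM against 15.9, 15.3, 12.0 and 11.9 CPM (log2 change of 0.29 ± 0.14 SE with an adjusted p of 0.610). For Slc18a1, 2 libraries labelled mutant lay above all controls and 2 within their range. Slc18a2 (-0.34 ± 0.25 SE), Tac1 (0.01 ± 0.18 SE), Maoa (-0.09 ± 0.13 SE) and Slc6a4 (0.13 ± 0.11 SE) had adjusted p from 0.802 to 0.998. The median log2 fold change of the 8 genes was 0.09 at 8 days.

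**Figure D2:**
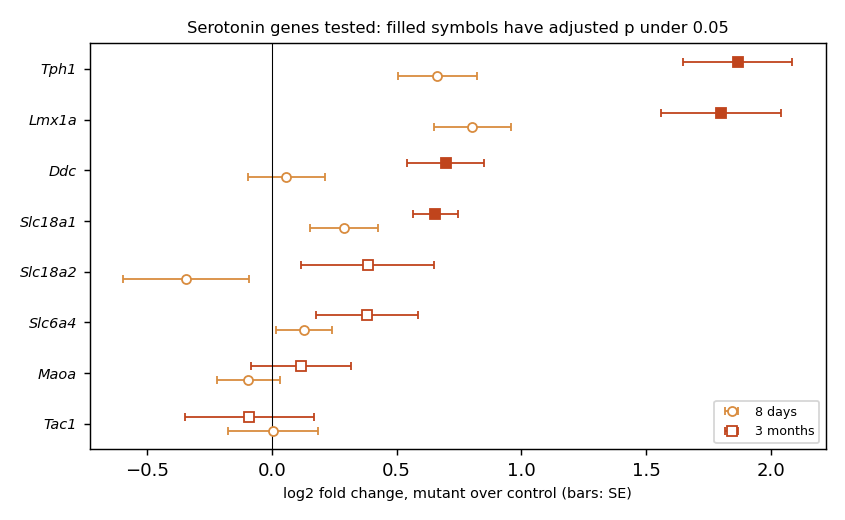
Log2 fold change of libraries labelled mutant over control for each serotonin gene tested, at 8 days and at 3 months, on the horizontal axis, with 1 SE as the bar. Filled points passed an adjusted p under 0.05, which held for Tph1, Lmx1a, Ddc and Slc18a1 at 3 months and for none at 8 days.

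Whether the genotype effect differed between the times was tested in 1 fit of all libraries. By edgeR 0 of the 8 genes passed, against 0.785% of all 17959 genes tested (141 genes). Tph1, Lmx1a, Ddc and Slc18a1, 4 of the 8, had an unadjusted p under 0.05, as did 16.6% of all genes (2973 genes). DESeq2 called Tph1 and Lmx1a, and 1017 genes in all. Tph1 came nearest, with an effect larger at 3 months by 1.19 on the log2 scale (SE 0.28, adjusted p 0.0564), followed by Lmx1a (0.98 ± 0.29 SE, adjusted p 0.0963) and Ddc (0.62 ± 0.23 SE, adjusted p 0.182). Slc18a1 (0.35 ± 0.16 SE), Slc18a2 (0.71 ± 0.38 SE), Slc6a4 (0.23 ± 0.26 SE), Maoa (0.19 ± 0.26 SE) and Tac1 (-0.12 ± 0.35 SE) had adjusted p from 0.281 to 0.909. A rise in Tph1 at 3 months and none called at 8 days therefore do not show that the times differ. The Tph1 call depended on the settings, passing without control replicate 4 of 3 months (1.48, adjusted p 0.0133), without mutant replicate 4 of 3 months (1.24, adjusted p 0.0471) and without mutant replicate 1 of 8 days (1.20, adjusted p 0.0404). Lmx1a passed without the same control replicate 4 (1.23, adjusted p 0.0491).

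Levels per length put the enzymes and carriers on 1 scale. In CPM per kilobase of exon sequence, the controls of 8 days held Maoa at 142 ± 19.8, Ddc at 15.5 ± 3.16 and Slc6a4 at 11.6 ± 0.693 (SD, n = 3). Ddc and Slc6a4, both also made by enterocytes, overlapped. Slc18a1 followed at 2.09 ± 0.166, Tac1 at 1.68 ± 0.299 and Tph1 at 1.04 ± 0.156, each apart from the next. Slc18a2 at 0.428 ± 0.0944 and Lmx1a at 0.383 ± 0.0363 overlapped, and Fev came last at 0.101 ± 0.0333. In libraries labelled mutant at 8 days the order was the same but for the last pair, with Lmx1a at 0.672 ± 0.0372 above Slc18a2 at 0.336 ± 0.0963, and with Tac1 (1.68 ± 0.270) and Tph1 (1.65 ± 0.244) overlapping (n = 4).

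At 3 months Maoa again led, at 135 ± 34.8 CPM per kilobase in controls and 146 ± 31.0 in libraries labelled mutant (SD, n = 4 each). In controls Slc6a4 (16.7 ± 4.08), Ddc (12.2 ± 2.46) and Tac1 (9.63 ± 3.24) each overlapped with the next, as did Slc18a1 (1.79 ± 0.146) and Tph1 (1.31 ± 0.466). In libraries labelled mutant Tph1 stood at 4.79 ± 0.515, above Slc18a1 at 2.82 ± 0.193, and the ranges did not overlap. Lmx1a, at 0.380 ± 0.129 beside Slc18a2 at 0.270 ± 0.0715 in controls, was at 1.33 ± 0.215 beside 0.350 ± 0.112 in libraries labelled mutant. Fev stayed lowest, at 0.0487 and 0.0503. The message for the first enzyme of synthesis thus stood below that for VMAT1 in both groups of 8 days and above it in the libraries labelled mutant of 3 months.

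**Figure D3:**
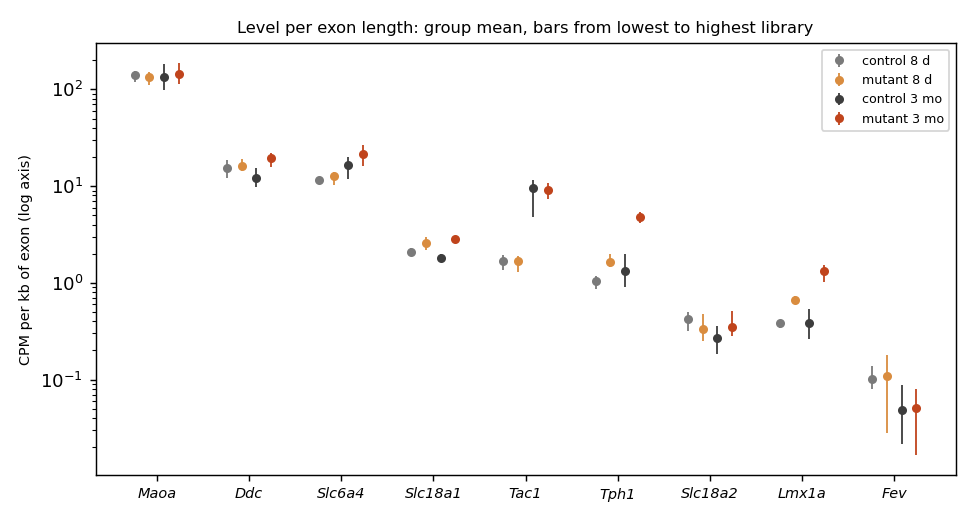
Mean level of each serotonin gene in CPM per kilobase of exon sequence, on a log axis, in the 4 groups (n = 3 or 4 libraries). Bars run from the lowest to the highest library. Maoa is the highest and Fev the lowest in each group, and Tph1 passes Slc18a1 only in the libraries labelled mutant at 3 months.

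Tac1 differed between the cohorts whatever the genotype. Controls averaged 5.70 ± 1.02 CPM at 8 days (SD, n = 3) and 32.7 ± 11.0 CPM at 3 months (n = 4), a ratio of 5.74. Libraries labelled mutant averaged 5.72 ± 0.918 and 30.7 ± 5.51 CPM, a ratio of 5.36. Every library of 3 months, from 16.3 CPM up, lay above every library of 8 days, at most 6.61 CPM. Over the 16810 genes tested at both times the median ratio of control means was 1.05, and 0.613% of genes had a ratio at least as large as that of Tac1. Among the other serotonin genes, leaving out Fev, which was at or near the detection floor, the ratio in controls ran from 0.632 for Slc18a2 to 1.43 for Slc6a4. Summed markers of enteric neurons, which also make Tac1, were 70.2 to 93.3 CPM in controls and 67.0 to 85.9 CPM in libraries labelled mutant at 8 days, and 62.6 to 67.1 and 63.8 to 92.0 CPM at 3 months. The control means of 10 of these 11 markers were lower at 3 months than at 8 days, such as Ret at 10.2 against 18.2 CPM, and that of Vip, a neuropeptide, was higher, at 22.1 against 14.5 CPM. Their part in the Tac1 levels was not tested.

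Ratios within a library do not move with scaling and were compared for 3 pairs at both times, 6 exact two-sided permutation tests in all. At 3 months there were 4.59, 6.96, 5.85 and 1.34 Tac1 counts for each Tph1 count in the libraries labelled control and 0.892, 1.17, 1.12 and 0.971 in those labelled mutant. The groups did not overlap, although control replicate 4 came close (difference in mean log2 ratio -1.95, exact permutation p 0.0286, the smallest that 4 against 4 allows, adjusted p 0.171). At 8 days the ratio averaged 0.899 ± 0.197 in controls (SD, n = 3) and 0.569 ± 0.112 in libraries labelled mutant (n = 4), a difference in mean log2 ratio of -0.66 (exact permutation p 0.0857, adjusted p 0.171).

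Tph1 against Chga, chromogranin A of endocrine granules, compares the enzyme with a granule protein of the same cells. At 3 months the ratio was 0.249, 0.208, 0.212 and 0.333 in controls and 0.328, 0.315, 0.322 and 0.279 in libraries labelled mutant, with overlapping groups (difference in mean log2 ratio 0.34, exact permutation p 0.143, adjusted p 0.172). At 8 days it differed by 0.35 (exact permutation p 0.114, adjusted p 0.171). Slc18a2 to Slc18a1, the balance of the 2 vesicular transporters, differed by -0.64 at 8 days (exact permutation p 0.114, adjusted p 0.171) and -0.29 at 3 months (p 0.429, adjusted p 0.429). None of the 6 ratios passed after adjustment, but with so few libraries a pass was hardly possible: a single ratio at the smallest p of 0.0286 adjusts to 0.171 over 6 tests.

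**Figure D4:**
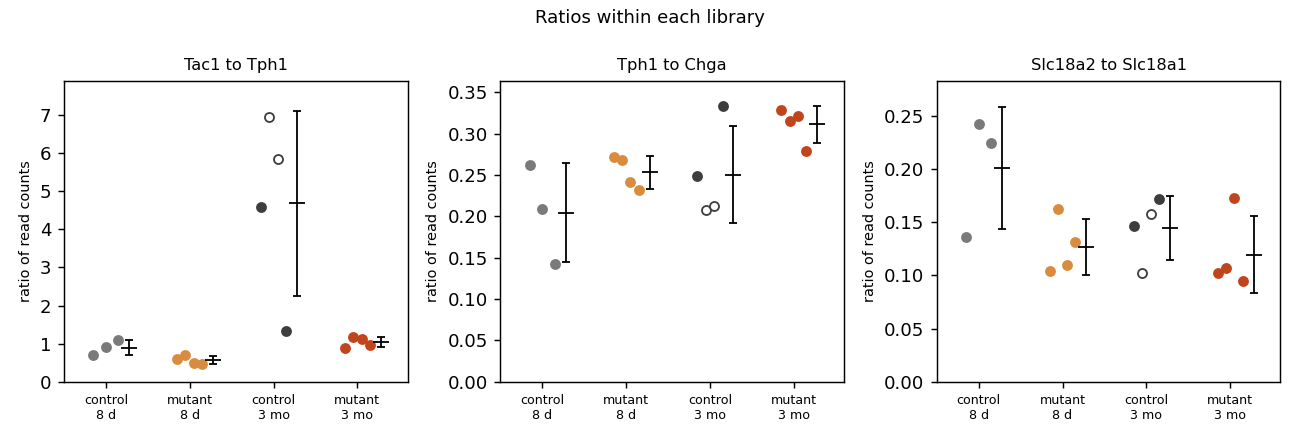
Count ratios of Tac1 to Tph1, Tph1 to Chga and Slc18a2 to Slc18a1 in each library, by group, with open circles for Rfx6f/+ controls. The Tac1 to Tph1 ratio of the libraries labelled mutant at 3 months lies below that of every control of 3 months, with control replicate 4 at 1.34 nearest to them, and overlaps with the controls of 8 days.

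The genes whose pattern over the 15 libraries was most like that of Tph1 were ranked by the root mean square difference in log2 CPM, each gene taken relative to the controls of its cohort. Lmx1a was nearest among 13546 genes, at 0.213, followed by Chgb (0.234), Chga (0.334), Esr1 (0.336) and Slc38a11 (0.376), where the median gene stood at 1.09. Chgb, another granin, went from 68.1 to 233 CPM at 3 months (adjusted p 0.000798), while its means of 48.2 and 62.5 CPM at 8 days did not pass (adjusted p 0.538). Esr1, the oestrogen receptor alpha, which tamoxifen binds, went from 3.48 to 12.7 CPM at 3 months (log2 fold change 1.86, adjusted p 4.98e-05) and from 6.11 to 12.3 CPM at 8 days (1.01, adjusted p 0.0657). Slc38a11, of an amino acid transporter family, went from 0.520 to 2.41 CPM at 3 months (adjusted p 0.00878). Of the serotonin genes, Slc18a1 ranked 231, Ddc 278, Slc6a4 1166, Slc18a2 3401, Maoa 4273 and Tac1 10413. Lmx1a, Chgb and Chga were known from earlier results of these data, and the ranking supports nothing independent of them.

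Around the 9 genes, 32 other genes of the pathway were in the tables, for the cofactor, degradation, low-affinity uptake and receptors of serotonin and tachykinins. Of 21 tested at 3 months, 1 was higher and 0 lower, against 9.28% of all genes in either direction, and the median log2 fold change was 0.12. Tacr1, the receptor for substance P, was 1.88 to 2.64 CPM in the libraries labelled control and 4.95 to 6.56 CPM in those labelled mutant (log2 change of 1.26 ± 0.15 SE with an adjusted p of 0.00415), while the difference from the genotype effect at 8 days, 1.05, did not pass (adjusted p 0.0506). Its control mean was 4.70 CPM at 8 days and 2.38 CPM at 3 months, and its mean under the mutant label 5.40 and 5.72 CPM. Tacr1 rose while Tac1, the precursor of its ligand, did not pass.

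The other pathway genes did not pass at 3 months. Slc22a3, an extraneuronal monoamine transporter, had the largest log2 fold change of the list, 1.34 ± 0.48 SE, from 1.76 ± 0.809 to 4.49 ± 2.98 CPM (SD, n = 4), with an adjusted p of 0.103. Tacr2, the receptor preferring neurokinin A, had a log2 fold change of 0.95 (adjusted p 0.0711), Htr3a, a subunit of the ion channel receptor of serotonin, 0.54 (adjusted p 0.158) and Htr2b, a G protein coupled receptor, 0.06 (adjusted p 0.922). Lower values that also missed were those of Htr7, another such receptor, at -0.64 (adjusted p 0.0748), and Pts, an enzyme of cofactor synthesis, at -0.24 (adjusted p 0.0657). Gch1, the first enzyme of the tetrahydrobiopterin cofactor that Tph1 needs, was at 24.5 ± 5.72 and 25.9 ± 2.77 CPM (0.08, adjusted p 0.784). Maob, the other monoamine oxidase, was at 22.1 ± 10.7 and 25.2 ± 4.09 CPM (0.19, adjusted p 0.693). Tph2, the neuronal tryptophan hydroxylase, had 0 to 4 counts in every library. At 8 days 0 of 22 tested pathway genes passed by edgeR, where 0.0915% of all genes did. An unadjusted p under 0.05 was seen for 1 of the 22 (Slc22a3, log2 fold change 0.69, adjusted p 0.460) and for 8.80% of all genes.

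**Figure D5:**
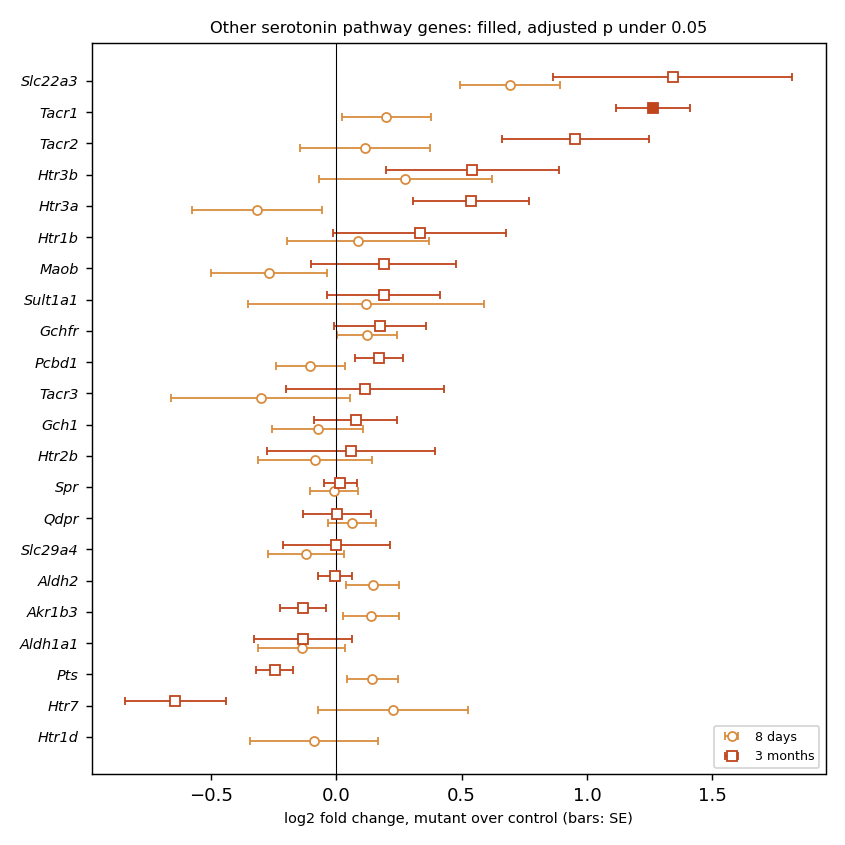
Log2 fold change of libraries labelled mutant over control at 8 days and 3 months for the other serotonin pathway genes tested, with 1 SE as the bar and filled points for an adjusted p under 0.05. Tacr1 at 3 months, at 1.26, is the 1 filled point.

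Of genes that carry tryptophan or use it in the kynurenine route, 10 of 12 were tested, and at 3 months 2 were lower and 0 higher, where 4.32% of all genes were lower. Ido1, which opens tryptophan toward kynurenine, fell from 68.9 ± 9.91 to 21.1 ± 13.8 CPM (SD, n = 4; log2 change of -1.71 ± 0.39 SE with an adjusted p of 0.0328). Kyat1, a kynurenine aminotransferase, fell from 26.2 to 15.8 CPM (log2 change of -0.73 ± 0.11 SE with an adjusted p of 0.00915). The median log2 fold change of the 10 genes was -0.19. At 8 days 0 of 10 passed by edgeR, where 0.0915% of all genes did. An unadjusted p under 0.05 was seen for 8.80% of all genes and for 5 of the 10. These went both ways, with Ido1 at -0.93, Slc6a19 at -0.46 and Kyat1 at -0.36, and Kmo at 0.81 and Kynu at 0.54 (adjusted p from 0.241 to 0.565).

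Markers of the cells that hold these genes moved with some of them. Of 9 enterochromaffin markers tested at 3 months, 6 rose, where 4.96% of all genes were called higher. Those that rose were Chga, Chgb, Reg4, Scn3a, Olfr558 and Olfr78, while Trpa1, Piezo2 and Adra2a did not pass. The sum of all 10 was 135.9 to 221.9 CPM in the libraries labelled control and 414.4 to 628.4 CPM in those labelled mutant. Most of it was Chgb, at 68.1 and 233 CPM on average, Reg4, at 41.1 and 150 CPM, and Chga, at 31.8 and 94.9 CPM. At 8 days 0 of 9 passed by edgeR, where 0.0915% of all genes did. An unadjusted p under 0.05 was seen for 1 of the 9 (Chgb) and for 8.80% of all genes. The sums were 191 to 256 and 163 to 244 CPM. On average Reg4 was 111 and 78.7 CPM, Chgb 48.2 and 62.5 CPM and Chga 32.6 and 40.6 CPM. For the difference between times 5 of 9 passed by edgeR, where 0.785% of all genes did. Chga, Chgb, Reg4, Scn3a and Olfr558 had a genotype effect more positive at 3 months. The part of the marker rise at 3 months in that of Tph1, Lmx1a, Ddc and Slc18a1 was not tested.

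Mast cell markers were 35.9 to 60.4 CPM in sum in controls and 51.2 to 82.1 CPM in libraries labelled mutant at 3 months, with 0 of 7 passing (1 at an unadjusted p under 0.05, as had 29.4% of all genes at this time) and Tpsab1 at 0 in every library. Most of the sum was Kit, which interstitial cells of the gut wall also make, at 32.1 of 46.6 CPM on average in controls and 40.7 of 64.9 CPM under the mutant label. Next came the mast cell proteases Mcpt1, at 8.86 and 14.9 CPM (log2 fold change 0.76, adjusted p 0.519), and Mcpt2, at 2.94 and 5.81 CPM (0.99, adjusted p 0.379). Cpa3, Cma1, Tpsb2, Ms4a2 and Fcer1a were each under 1 CPM in group mean. The log2 fold changes of all 7 tested were above 0, with a median of 0.47. Platelet markers summed to 4.47 to 5.65 against 6.59 to 11.2 CPM, with 1 of 2 tested higher (Pf4, log2 fold change 1.19, adjusted p 0.0366), beside 4.96% of all genes. That sum was almost wholly Pf4, at 2.53 and 5.78 CPM on average, and Itga2b, at 2.22 and 2.85 CPM. The other 5 of the 7 listed, Ppbp, Gp1ba, Gp9, Gp6 and Treml1, were too low to test, and all but Gp1ba had lower means under the mutant label. These means were at or near the detection floor, with 0 to 9 counts per library, and give no direction. Enteric neuron markers were 62.6 to 67.1 against 63.8 to 92.0 CPM, the highest in mutant replicate 3, which also held the highest Slc18a2, and 1 of 11 was higher (Snap25, 0.70, adjusted p 0.0106), a share near that of all genes called, 9.28%. Of the catecholamine nerve markers 0 of 1 tested passed. Their part in the results was not tested.

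The labelled tissue was checked on its own markers. Enterocyte markers summed to 10890 to 14611 CPM in the libraries labelled control at 3 months and 9895 to 15294 CPM in those labelled mutant, with 0 of 8 passing (4 at an unadjusted p under 0.05, against 29.4% of all genes). Ileal bile acid genes were present in all groups, and 2 of 5 were lower at 3 months, beside 4.32% of all genes, namely Fabp6 (log2 fold change -1.44, adjusted p 0.00873) and Slc51b (-0.70, adjusted p 0.00613), with sums of 3200 to 3878 against 1262 to 2091 CPM. Smooth muscle markers were 1413 to 1717 against 1538 to 2731 CPM, the highest again in mutant replicate 3, with 0 of 5 passing (1 at an unadjusted p under 0.05). At 8 days 0 genes of these 3 lists passed by edgeR, where 0.0915% of all genes did. An unadjusted p under 0.05 was seen for 0 of 8, 1 of 5 and 1 of 5, against 8.80% of all genes at this time.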

How the data were processed

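Ribosomal RNA was depleted from total RNA of mouse ileum, per the labels' protocols; the molecule label, in contrast, reads polyA. The deposited values are raw counts per Ensembl gene, in 1 table of 37620 genes for each cohort. The submitters' processing notes name mm9, bcl2fastq 2.17.1.14, Bowtie 1.0.0, TopHat2 2.0.10, Bowtie2 2.1.0 and HTSeq 0.6.1, without roles. Annotation and strand handling are not given in the sources used here, nor is which library had which of the RNA extraction methods. Symbols and exon lengths came from GENCODE M21, which named 32897 identifiers (87.45%), and promoter windows from RefSeq on GRCm38.p6.

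Within each cohort genes were kept by filterByExpr (minimum count 10), scaled by TMM and tested with edgeR 4.0.16 in R 4.3.3 by the quasi-likelihood F test with Benjamini-Hochberg adjustment over all genes, called at an adjusted p under 0.05. The difference between times was tested in 1 fit of 15 libraries. CPM used TMM-scaled library sizes. Ratios were taken from counts and tested by exact permutation. The fits within each cohort, but not the fit of 15 libraries, were also run on simulated counts, and the outcome is not reported here. Alternatives were DESeq2 1.42.0, limma-voom (limma 3.58.1), size factors by RLE, other filters, 1 fit for all libraries, leaving out the Rfx6f/+ controls, and leaving out every library singly.

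The genes and lists were chosen with earlier results of these data known, and 1 listed pathway gene is not reported here. Named beyond the 9 were listed genes called at either time, Tph2, Maob, Gch1, the 4 most abundant receptors, and the 5 genes most like Tph1 averaging log2 CPM of 0 or more, using a pseudocount of 0.05. Some others (Slc22a3, Htr7, Pts, Slc6a19, Kmo, Kynu and single cell type markers) are named after their values were seen. Replicate numbers follow deposit order.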

Additional observations from a re-analysis of the deposited data

Results flagged for a closer look

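Of 36 checks for a library far from the others of its group, over the 9 genes and 3 ratios in the 3 groups of 4 libraries, 3 stood out, beside 1.8 that chance gives at about 1 in 20. Lmx1a was 2.47 CPM in mutant replicate 4 of 8 days and 2.21 to 2.23 CPM in the other 3 libraries. Tac1 was 16.3 CPM in control replicate 4 of 3 months, with the other controls at 36.9 to 38.9 CPM. Slc18a2 was 2.69 CPM in mutant replicate 3 of 3 months and 1.46 to 1.67 CPM in the others.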

How the results depend on the processing

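At 8 days the count of genes called went from 16 to 178 with DESeq2 (109 higher, 69 lower), 27 without a filter, 25 in 1 fit of all libraries and 8 to 200 with a library left out, 200 being without mutant replicate 1. The serotonin genes called went from 0 to 2 with DESeq2 and stayed at 0 with a library left out. At 3 months the count went from 1586 to 2983 with DESeq2, 36 with Rfx6f/f controls only and 391 to 1521 with a library left out. The counts were 400, 412 and 391 without control replicates 1, 2 and 3, and 856 and 768 without mutant replicates 1 and 3. The serotonin genes called went from 4 to 1 with Rfx6f/f controls only and were 3 to 4 with a library left out. For the difference between times, 141 became 1017 with DESeq2, 41 with limma-voom, 223 without a filter, 248 with at least 10 counts in every library, 5 with Rfx6f/f controls only and 10 to 749 with a library left out. The serotonin genes called there were 2 with DESeq2 (Tph1 and Lmx1a, adjusted p 0.00244 and 0.0248), 1 without a filter (Tph1, adjusted p 0.0492), 1 with at least 10 counts in every library (Tph1, adjusted p 0.0499) and 0 to 2 with a library left out. The causes were not tested.

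Rfx6f/f controls only reversed the log2 fold change of Tac1 (0.21) and Maoa (-0.093) at 3 months and the difference between times for Tac1 (0.21). With a library left out the log2 fold change crossed 0 for Ddc at 8 days (-0.087 to 0.21), Tac1 at 8 days (-0.13 to 0.12), Tac1 at 3 months (-0.31 to 0.0028), Maoa at 3 months (-0.028 to 0.30) and the Tac1 difference between times (-0.31 to 0.024). None of these was called. Tph1 kept its call at 3 months under every alternative (log2 fold change 1.55 to 2.13). The Tac1 to Tph1 difference at 3 months was -2.47 to -1.68 with a library left out, with an unadjusted exact permutation p up to 0.0571 without a mutant library. That of Tph1 to Chga was 0.26 to 0.48, with p 0.0286 without control replicate 4. No paired analysis was possible because the labels pair no libraries and replicate numbers follow deposit order. Depth limits Fev and Tph2, at a few counts.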
